A study of Mus musculus with 12 samples.

Results

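The E3 ubiquitin ligases linked to T cell anergy were followed through regulatory T cells (Tregs) with introduced receptors for insulin: Cblb, Dtx1, Itch, Rnf128, Nedd4 and Peli1, which are 6 of the 24417 genes listed. They were chosen by name for their reported roles, with earlier results of these data known, and every member is accounted for. The Tregs, the Foxp3-expressing T cells that hold back immune responses, came from NOD mice, an inbred strain that develops autoimmune diabetes, at an age of 6.8 weeks. The mice were two-TCR retrogenic animals, whose T cell receptors (TCRs) are brought in by transduced bone marrow. The receptors were 4-8, of high affinity, and 12-4.4m1, of low affinity, and both recognise insulin. Sorted cells were sequenced as 4 groups of 3 libraries: islet 4-8, islet 12-4.4m1, spleen 4-8 and spleen 12-4.4m1. Since each affinity is represented by 1 receptor, its effect and that of the receptor's other properties cannot be told apart. Whether libraries of the same group stem from different mice is not stated in the labels, and p-values thus cover only the spread among these libraries, which may be technical.

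An E3 ubiquitin ligase picks the protein to which ubiquitin is attached, which marks it for degradation, sorting to lysosomes or altered signalling. Anergy is the unresponsive state of a T cell that has met antigen without costimulation, and in mouse T cells it is accompanied by induction of several such ligases. Cblb is a RING-type ligase that raises the need for CD28 costimulation. Itch and Nedd4 are HECT-type ligases, which take ubiquitin onto a catalytic cysteine and are activated by the adaptors Ndfip1 and Ndfip2. Rnf128, also called GRAIL, is a membrane-spanning RING ligase of endosomes, Dtx1 belongs to the deltex family first known from Notch signalling and is induced through NFAT in anergic mouse T cells, and Peli1 is a Pellino ligase that limits the NF-kB subunit c-Rel in mouse T cells.

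The level of each ligase per transcript length was read from the authors' Cuffdiff tables, which give a single FPKM per group and comparison, without a spread. Peli1 was the most abundant member, at 90.9 to 135 FPKM in the 4 groups. Cblb was at 16.9 to 61.3 FPKM and Dtx1 at 12.6 to 77.6 FPKM, the widest range among the 4 members tested in every comparison. Itch was at 7.85 to 13.2 FPKM, Nedd4 at 0.682 to 2.77 FPKM and Rnf128 at 0.388 to 2.23 FPKM. By level, Peli1 thus stood first in every group, followed by Dtx1 and then Cblb in both spleen groups and by Cblb and then Dtx1 in both islet groups. The authors' mean normalized count (baseMean), an average over the 6 libraries of a comparison, told which members could be tested. Cblb, Dtx1, Itch and Peli1 were above 10 in all 4 comparisons. Rnf128 was below 10 in all 4, with 2.76 to 7.20 counts. Nedd4 was below 10 in 2 comparisons, at 3.80 between the TCRs in islets and 4.63 between the tissues for 12-4.4m1. It was above 10 between the tissues for 4-8, at 12.7, and between the TCRs in spleen, at 14.5.

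**Figure D1:**
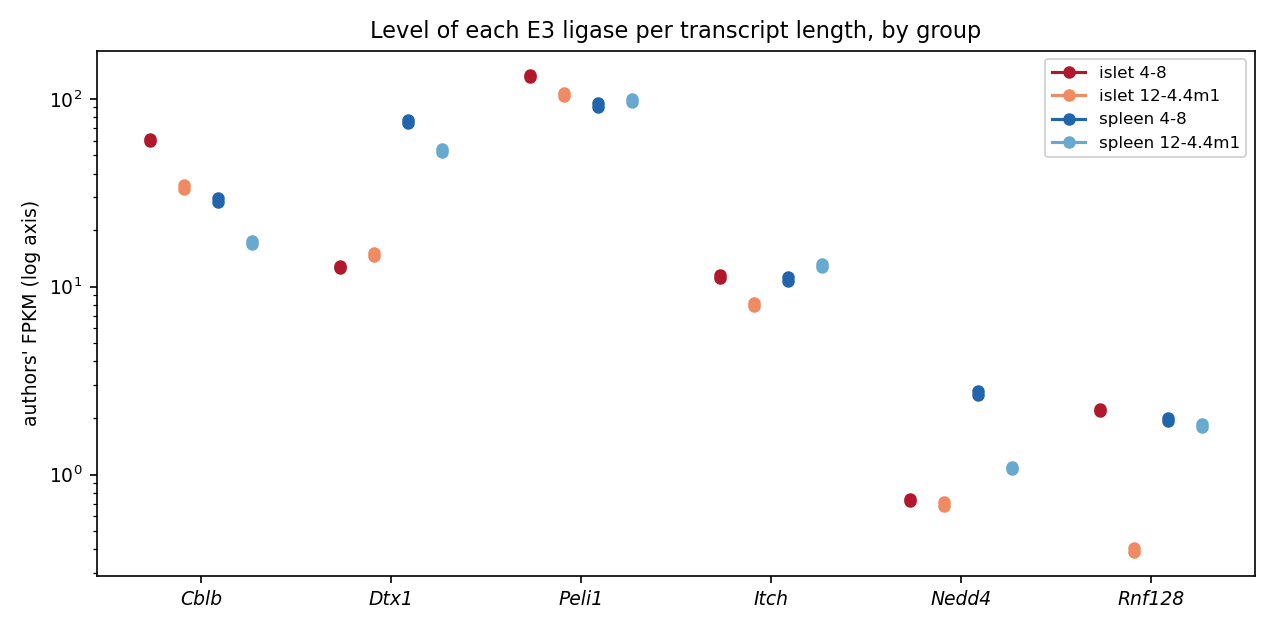
Authors' FPKM of each ligase on a log axis in islet 4-8, islet 12-4.4m1, spleen 4-8 and spleen 12-4.4m1 Tregs. Each group has a point from each of the 2 comparisons it enters. Cblb is highest in islet 4-8 and Dtx1 is highest in spleen 4-8, while Nedd4 and Rnf128 lie below 3 FPKM throughout.

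The comparison of islets with spleen asks how the ligases differ between Tregs in the tissue that holds their antigen and Tregs in a lymphoid organ. Cblb rose and Dtx1 fell in islet Tregs of both TCRs, while none of the other tested members passed. Per-library values were regularized log (rlog) values, on a log2 scale, tested with limma at a Benjamini-Hochberg adjusted p of 0.05 over all genes with a mean normalized count of at least 10. For 4-8, 2 of the 5 members tested passed, in a comparison where 7.98% of all genes tested passed, 5.14% higher and 2.84% lower in islets. For 12-4.4m1, 2 of 4 passed, where 6.81% of all genes tested passed, 4.63% higher and 2.18% lower. At an unadjusted p under 0.05 there were 4 of 5 for 4-8, where 22.2% of all genes tested lay under it, and 2 of 4 for 12-4.4m1, where 20.3% did. Islet and spleen libraries did not overlap, in either direction, for 4 of 5 members tested for 4-8 and 27.4% of all genes tested. For 12-4.4m1 this held for 3 of 4 members tested and 24.1% of all genes tested. The authors' deposited tables of DESeq2 tests called 2 members for each TCR, where 6.76% of genes were called for 4-8 and 4.72% for 12-4.4m1. Their Cuffdiff tables called 3 of 4 members for 4-8, where 15.7% of genes were called, and 2 of 4 for 12-4.4m1, where 14.4% were. The tables were normalized separately, so values compare within a table only. In these bulk libraries, fewer cells of a type and less RNA per cell cannot be told apart.

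**Figure D2:**
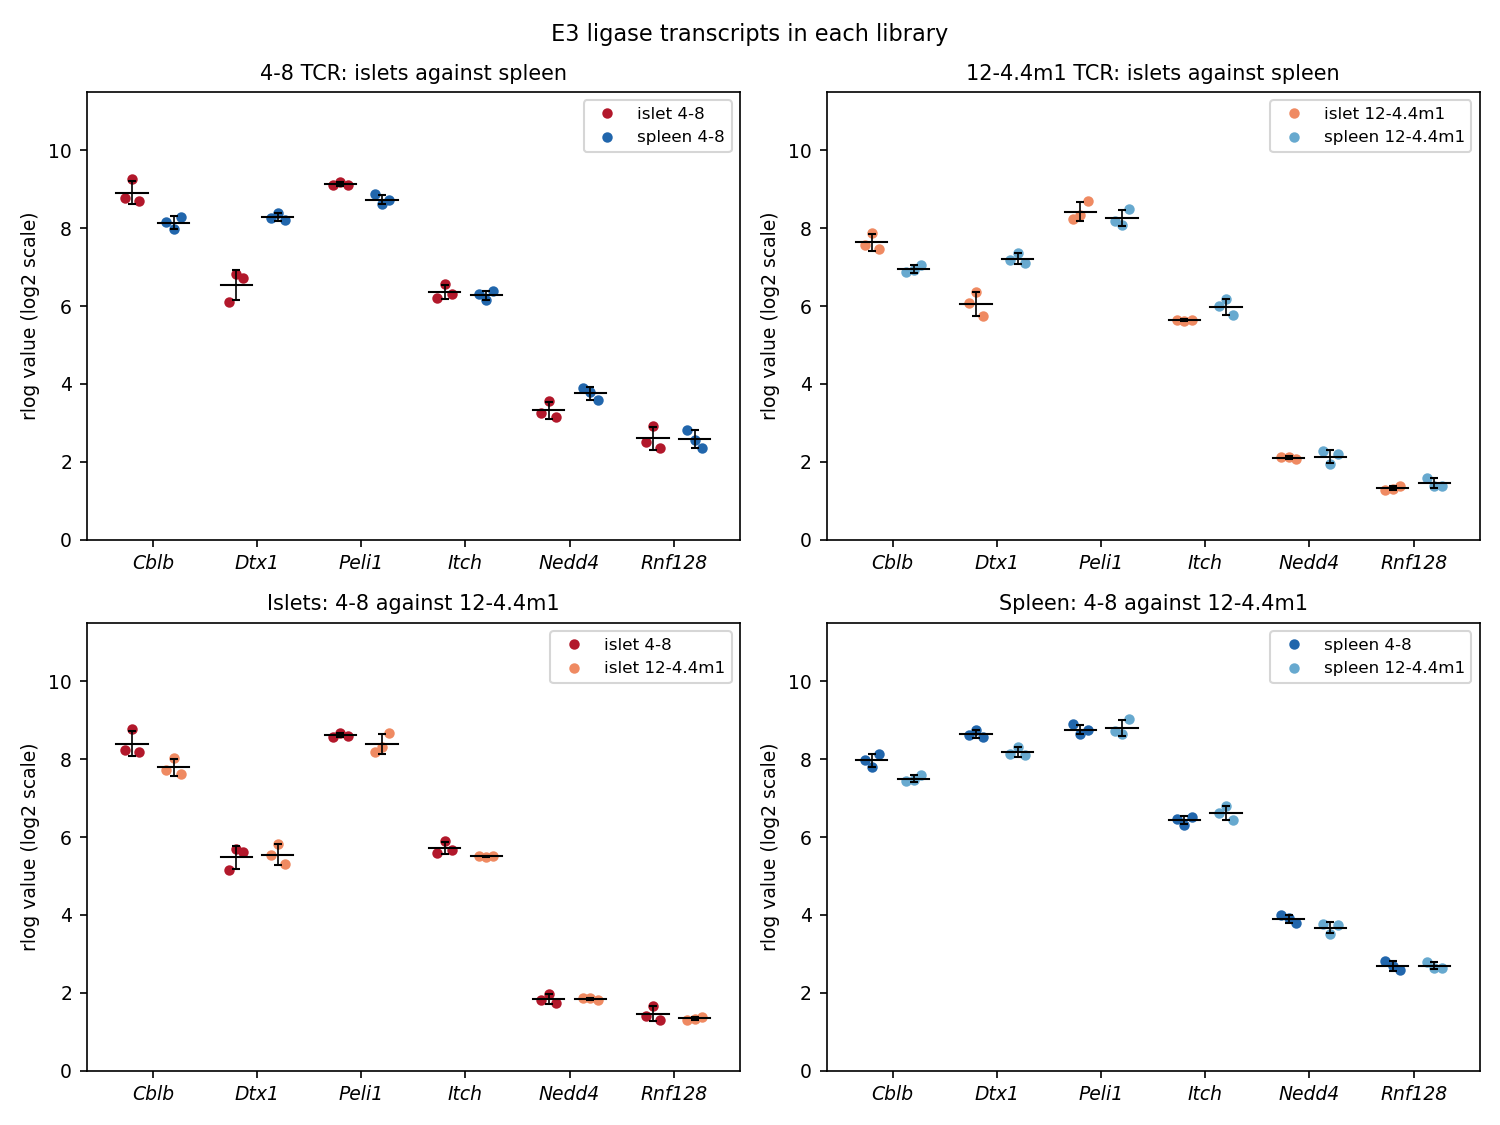
Regularized log values (log2 scale) of each ligase in every library of the 4 comparisons, with the first-named group on the left of each pair. Points are libraries, horizontal lines are means and bars are SD of 3 libraries. Islet and spleen libraries of both TCRs separate for Cblb (islets above) and Dtx1 (islets below).

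Cblb had rlog values of 8.77, 9.27 and 8.71 in islet 4-8 libraries, against 8.16, 7.97 and 8.29 in spleen 4-8 libraries. Every islet library lay above every spleen library, and islet 4-8 replicate 2 was the highest. The difference was 0.77 ± 0.17 (SE) on the log2 scale, or 1.71-fold of rlog values (limma adjusted p = 0.00778). For 12-4.4m1 the values were 7.56, 7.88 and 7.47 in islets, against 6.88, 6.92 and 7.06 in spleen. Again the groups did not overlap, as for 24.1% of all genes tested there. The difference was 0.68 ± 0.16 (SE), or 1.60-fold (limma adjusted p = 0.00988). Rlog values pull differences towards 0. In the authors' FPKM, Cblb was at 61.3 in islets and 28.4 in spleen for 4-8, a 2.16-fold difference, and at 34.8 in islets and 16.9 in spleen for 12-4.4m1, a 2.06-fold difference. The authors' deposited table of DESeq2 tests called Cblb higher in islets as well, with an adjusted p of 0.000126 for 4-8 and 0.0118 for 12-4.4m1. The call depended on single libraries. For 4-8, the limma adjusted p was 0.0588 without spleen 4-8 replicate 2. For 12-4.4m1 it was 0.0560 without islet replicate 2, 0.0614 without spleen replicate 1 and 0.0556 without spleen replicate 2. The titles of islet 12-4.4m1 replicates 1 and 2 and islet 4-8 replicate 2 are written in another style, with Treg in place of R, and with title style in the fit the 12-4.4m1 difference was 0.52 ± 0.21 (SE, limma adjusted p = 0.141). Without the libraries titled Treg it was also 0.52, with 1 islet library left that is assumed to vary like the others (limma adjusted p = 0.0898).

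Dtx1 moved the other way and further. In 4-8, it had rlog values of 6.10, 6.83 and 6.71 in islets, against 8.26, 8.39 and 8.20 in spleen. The lowest spleen library was far above the highest islet library. The difference was -1.74 ± 0.19 (SE) on the log2 scale, which places spleen 3.33-fold above islets in rlog values (limma adjusted p = 8.13e-06, rank 40 by p of 8981 genes). In 12-4.4m1, Dtx1 had rlog values of 6.07, 6.36 and 5.75 in islets, against 7.18, 7.37 and 7.11 in spleen. The difference was -1.16 ± 0.18 (SE), with spleen 2.24-fold above islets (limma adjusted p = 0.000111). The authors' FPKM was 13.0 in islets and 74.5 in spleen for 4-8, 5.75-fold apart, and 15.2 in islets and 52.1 in spleen for 12-4.4m1, 3.44-fold apart. The authors' deposited table of DESeq2 tests gave an adjusted p of 1.68e-14 for 4-8 and 2.04e-05 for 12-4.4m1. Dtx1 passed in all 16 alternatives computed for 4-8 and all 17 for 12-4.4m1. The order of the groups in FPKM was spleen 4-8, spleen 12-4.4m1, islet 12-4.4m1 and islet 4-8. Of the neighbours in that order, both spleen groups and both islet groups did not pass against each other, and spleen 12-4.4m1 and islet 12-4.4m1 did. Whether the fall was larger in 4-8 was not tested, since the tissue comparisons of the TCRs come from tables normalized separately.

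The stretches before the RefSeq starts of Cblb and Dtx1 are shown because these members passed in opposite directions. On GRCm38, the build of the authors' files, Cblb lies on chromosome 16 from 52031225 to 52208048 on the forward strand and Dtx1 on chromosome 5 from 120680202 to 120711927 on the reverse strand. Both are annotated as protein-coding in GENCODE vM21. The 250 bases before the RefSeq transcription start (GRCm38.p6), written 5′ to 3′ on the strand of the gene, are at chr16:52031299-52031548 for Cblb and chr5:120711670-120711919 for Dtx1. Both stretches lie inside the GENCODE spans, which begin further 5′ than the RefSeq starts. They are thus not upstream of the genes as GENCODE annotates them. Capitals mark letters that match any of 4 motifs on either strand: the NFAT core GGAAA, the RBPJ core of Notch signalling TGGGAA, the AP-1 site TGANTCA and the EGR site GCGNGGGCG.
Cblb: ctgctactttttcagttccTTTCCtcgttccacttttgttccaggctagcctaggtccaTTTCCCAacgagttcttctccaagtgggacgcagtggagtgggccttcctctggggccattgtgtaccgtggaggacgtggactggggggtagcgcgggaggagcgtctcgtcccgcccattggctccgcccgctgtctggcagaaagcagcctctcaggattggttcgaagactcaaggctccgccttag
Dtx1: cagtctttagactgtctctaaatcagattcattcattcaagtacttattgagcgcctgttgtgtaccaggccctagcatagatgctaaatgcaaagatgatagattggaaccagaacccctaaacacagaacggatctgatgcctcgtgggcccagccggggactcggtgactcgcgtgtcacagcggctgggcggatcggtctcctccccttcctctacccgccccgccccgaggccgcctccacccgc
The Cblb stretch held 2 NFAT matches, from -231 to -227 and from -191 to -187, where -1 is the base before the RefSeq start. It also held 1 RBPJ match, from -190 to -185, that overlaps the second NFAT match. The Dtx1 stretch held 0 matches to any of the 4. Of 32851 such stretches in the RefSeq table, 55.6% held the NFAT core, 21.6% the RBPJ core, 6.75% the AP-1 site and 4.7% the EGR site, so the Cblb matches are common letters. A match is a description and not a bound site, and sequence outside this window was not searched. Of the 6 ligases, 5 have an entry in that table, which holds none for Itch.

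Peli1 did not pass in either tissue comparison. For 4-8 its rlog values were 9.11, 9.19 and 9.12 in islets, against 8.87, 8.63 and 8.71 in spleen. The groups did not overlap, as for 27.4% of all genes tested there, and the difference was 0.40 ± 0.14 (SE, limma adjusted p = 0.0877). The authors' deposited Cuffdiff table did call Peli1, with an FPKM of 135 in islets and 90.9 in spleen (q = 0.0342), while their table of DESeq2 tests did not (adjusted p = 0.116). For 12-4.4m1 the groups overlapped, at 8.22 to 8.71 in islets and 8.09 to 8.51 in spleen. The difference was 0.16, with a 95% interval of -0.17 to 0.49.

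Itch, which targets JunB in mouse T cells, also did not pass. For 4-8 its mean rlog value was 6.36 in islet libraries (SD 0.19, n = 3) and 6.28 in spleen libraries (SD 0.11, n = 3). The 95% interval of the difference ran from -0.28 to 0.44. For 12-4.4m1 its rlog values ran from 5.62 to 5.65 in islets and from 5.78 to 6.17 in spleen. All islet libraries lay below all spleen libraries. Groups did not overlap, in either direction, for 24.1% of all genes tested there. The difference was -0.34 ± 0.18 (SE, limma adjusted p = 0.301).

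Nedd4 and Rnf128 were near the floor of these libraries. Nedd4 could be tested between the tissues for 4-8, where its rlog values were 3.26, 3.57 and 3.14 in islets, against 3.90, 3.78 and 3.59 in spleen. The groups did not overlap, as for 27.4% of all genes tested there. The difference of -0.44 ± 0.17 (SE) did not pass (limma adjusted p = 0.143). It passed without islet 4-8 replicate 2 (-0.56, limma adjusted p = 0.0426). The authors' FPKM of Nedd4 was 0.745 in islets and 2.66 in spleen for 4-8, on a mean normalized count of 12.7, and Cuffdiff did not test it. For 12-4.4m1, Nedd4 was 2.07 to 2.13 in islets and 1.94 to 2.27 in spleen. Rnf128 was 2.35 to 2.93 in islet 4-8 and 2.36 to 2.83 in spleen 4-8, and its means were 1.32 in islet 12-4.4m1 and 1.45 in spleen 12-4.4m1. Its authors' FPKM was 2.23 in islets and 1.93 in spleen for 4-8, and 0.405 in islets and 1.79 in spleen for 12-4.4m1. Cuffdiff did not test Rnf128 for either TCR. With no filter on low counts, the limma adjusted p of Rnf128 was 0.964 for 4-8 and 0.612 for 12-4.4m1. At so few counts a change of Rnf128 was not detectable, and it is not shown to be absent.

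**Figure D3:**
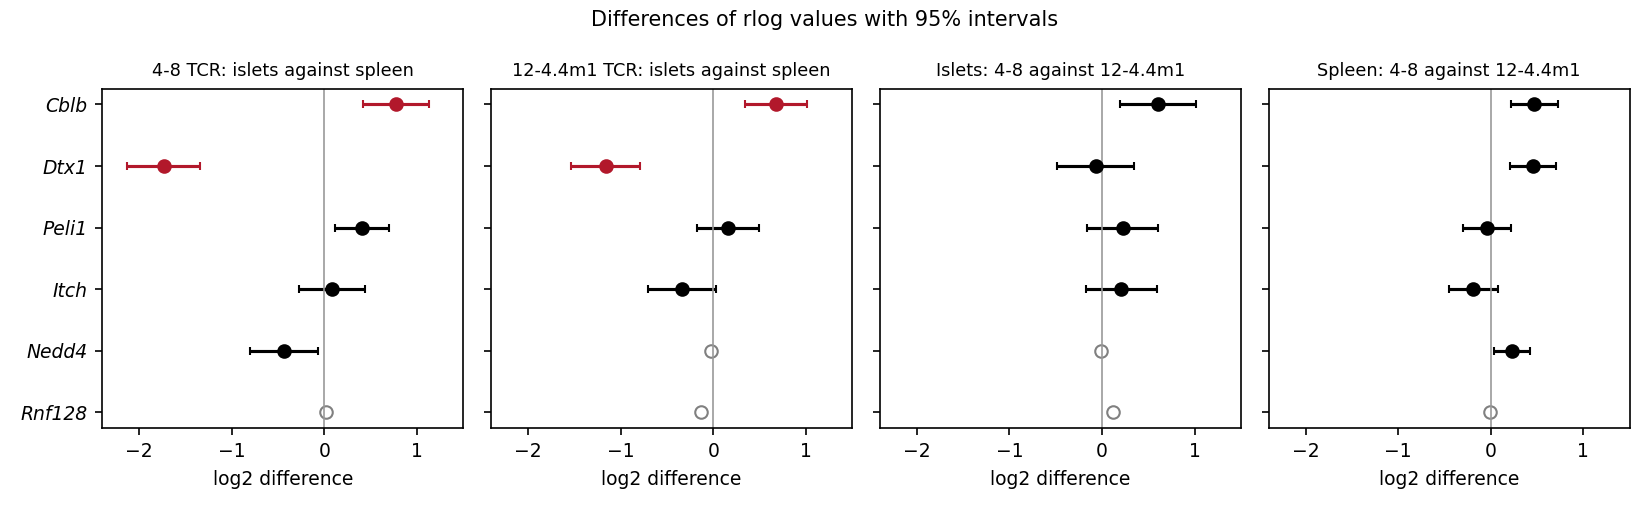
Log2 differences of rlog values, first-named group minus second, with 95% intervals from the limma fit. Red marks members that passed at an adjusted p of 0.05 and open circles mark members below the count filter, given without a test. Cblb lies above 0 and Dtx1 below 0 in both tissue comparisons, and no member passed between the TCRs.

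The comparison of the TCRs asks whether Tregs of the high affinity receptor carry more of these ligases than Tregs of the low affinity receptor. By limma, 0 members passed in islets, of 4 tested, and 0 in spleen, of 5 tested, where 0.365% of all genes tested passed in islets (0.256% higher and 0.11% lower in 4-8) and 0.428% in spleen (0.209% higher and 0.22% lower in 4-8). At an unadjusted p under 0.05 there were 1 in islets, where 6.78% of all genes tested lay under it, and 3 in spleen, where 7.93% did. The authors' deposited tables of DESeq2 tests also called 0 members in each tissue, where 0.353% of genes were called in islets and 0.231% in spleen, while their Cuffdiff tables called 1 in each, Cblb, among 0.945% of genes called in islets and 1.15% in spleen.

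In islets, Cblb had rlog values of 8.24, 8.77 and 8.18 in the 4-8 libraries, against 7.72, 8.03 and 7.62 in the 12-4.4m1 libraries. The groups did not overlap, as for 11.9% of all genes tested. The difference was 0.61 ± 0.20 (SE, limma adjusted p = 0.326), with a 95% interval of 0.20 to 1.01. It passed with title style in the fit (0.74 ± 0.17 SE, limma adjusted p = 0.0240) and with the level of Xist, the X-inactivation transcript of female cells, in the fit (0.71 ± 0.17 SE, limma adjusted p = 0.0371). Within the title styles, the sole 4-8 library titled Treg was at 8.77 against 7.72 and 8.03 in the 12-4.4m1 libraries titled Treg, and the 4-8 libraries titled R were at 8.24 and 8.18 against 7.62 in the 12-4.4m1 library titled R. The authors' FPKM was 59.5 in 4-8 and 33.3 in 12-4.4m1, 1.79-fold apart (Cuffdiff q = 0.0430), and their DESeq2 adjusted p was 0.519. Dtx1 had rlog values of 5.15, 5.68 and 5.61 in islet 4-8, against 5.55, 5.81 and 5.30 in islet 12-4.4m1. The groups overlapped, and the 95% interval of the difference ran from -0.49 to 0.35. Peli1 had a difference of 0.22 (interval -0.16 to 0.61) and Itch of 0.21 (interval -0.18 to 0.60). The Itch groups did not overlap. Nedd4 and Rnf128, below the filter, had mean rlog values of 1.84 and 1.46 in islet 4-8 and 1.85 and 1.34 in islet 12-4.4m1. The authors' FPKM of Rnf128 was 2.18 in islet 4-8 and 0.388 in islet 12-4.4m1. This was on a mean normalized count of 3.13, and Cuffdiff did not test Rnf128.

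In spleen, Cblb had rlog values of 7.98, 7.80 and 8.14 in the 4-8 libraries, against 7.43, 7.47 and 7.60 in the 12-4.4m1 libraries. The difference was 0.47 ± 0.13 (SE, limma adjusted p = 0.115), rank 67 by p of 9108 genes. The authors' FPKM was 29.6 in 4-8 and 17.5 in 12-4.4m1, 1.68-fold apart (Cuffdiff q = 0.0229), and their DESeq2 adjusted p was 0.443. Dtx1 had rlog values of 8.62, 8.75 and 8.56 in the 4-8 libraries, against 8.14, 8.32 and 8.10 in the 12-4.4m1 libraries, a difference of 0.46 ± 0.12 (SE, limma adjusted p = 0.115) at rank 61. The groups did not overlap for either gene, nor for Nedd4, whose mean was 3.90 in 4-8 (SD 0.10) and 3.67 in 12-4.4m1 (SD 0.15), with a limma adjusted p of 0.510. Non-overlap was found in 3 of the 5 members tested and in 13.3% of all genes tested. Itch was at -0.19 (interval -0.45 to 0.08) and Peli1 at -0.04 (interval -0.30 to 0.22). Rnf128 was 2.69 in 4-8 and 2.70 in 12-4.4m1. Cblb thus had its highest FPKM in islet 4-8 and its lowest in spleen 12-4.4m1. Islet 12-4.4m1 and spleen 4-8, which lay between, never stand in the same table and were not compared. The TCR and tissue comparisons share libraries, so the 4 values of a gene are not independent.

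The pathway around these ligases was described with lists chosen with earlier results of these data known, by counts and medians and without a test of the list. Of 20 other ligases of the same families, 11 were tested between the tissues for 4-8 and 12 for 12-4.4m1. In 4-8 islets Dtx3, another deltex gene, was higher (0.67, limma adjusted p = 0.0231), as was Rnf149 (0.63, limma adjusted p = 0.0469), a relative of Rnf128. In 12-4.4m1 islets Dtx3 was higher (0.79, limma adjusted p = 0.0111), and 0 of these ligases were lower in either comparison. Dtx3 thus differed in the direction opposite to Dtx1. The median of the list was 0.09 for 4-8 and 0.02 for 12-4.4m1, against -0.01 and -0.00 over all genes tested.

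Of 12 adaptors and deubiquitinases, all tested in both comparisons, 2 were higher in islets and 0 lower for each TCR. These were Ndfip1, the adaptor that activates Itch and Nedd4, at 0.59 ± 0.16 for 4-8 (SE, limma adjusted p = 0.0330) and 0.52 ± 0.16 for 12-4.4m1 (SE, limma adjusted p = 0.0428), and Tnfaip3, the ubiquitin-editing enzyme A20, at 2.17 ± 0.13 (SE, limma adjusted p = 8.37e-09) and 2.29 ± 0.14 (SE, limma adjusted p = 2.56e-11). The medians of the list were -0.16 and -0.12. Of 12 reported substrates, 4 were higher and 0 lower for each TCR. Jun, an AP-1 subunit, was at 2.71 for 4-8 (limma adjusted p = 1.52e-07) and 2.94 for 12-4.4m1 (limma adjusted p = 3.23e-11), and Junb, a substrate of Itch, at 1.84 (limma adjusted p = 6.08e-07) and 1.96 (limma adjusted p = 8.91e-10). Plcg1, the phospholipase downstream of the TCR, was at 0.84 (limma adjusted p = 0.0179) and 0.94 (limma adjusted p = 0.00154). The fourth gene was Klf10 for 4-8 (0.74, limma adjusted p = 0.0150) and Rel, the target of Peli1, for 12-4.4m1 (0.71, limma adjusted p = 0.0145). The medians were 0.29 and 0.21. Transcript levels of substrates say nothing of their ubiquitination, which was not measured.

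Among 16 other anergy genes, 5 were higher and 0 lower in islets for each TCR. Lag3, an inhibitory receptor, was at 3.02 for 4-8 (limma adjusted p = 8.27e-09) and 1.48 for 12-4.4m1 (limma adjusted p = 5.93e-06), and the nuclear receptor Nr4a1 at 2.27 (limma adjusted p = 2.21e-07) and 2.83 (limma adjusted p = 1.52e-09). Egr2, a zinc finger factor of anergic T cells, was at 1.09 (limma adjusted p = 0.00157) and 1.37 (limma adjusted p = 0.000113). Tob1 (0.80, limma adjusted p = 0.0263) passed for 4-8, and Nfatc2, which encodes an NFAT factor (0.89, limma adjusted p = 0.000329), and Dgkz, a diacylglycerol kinase (0.69, limma adjusted p = 0.0239), passed for 12-4.4m1. Plcg1 for 4-8, Rel, Egr2 for 4-8, Tob1, Nfatc2 and Dgkz lie outside the rule for named genes and were named to complete these counts. Between the TCRs, 0 of the related ligases, adaptors, deubiquitinases and substrates passed in either tissue. The smallest p in both was that of the substrate Cd247, the zeta chain of the TCR complex, whose difference was 0.59 in islets (limma adjusted p = 0.359) and 0.49 in spleen (limma adjusted p = 0.0756). Of the other anergy genes, Lag3 was higher in 4-8 in islets (2.55, limma adjusted p = 3.16e-09) and in spleen (0.71, limma adjusted p = 0.00669).

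**Figure D4:**
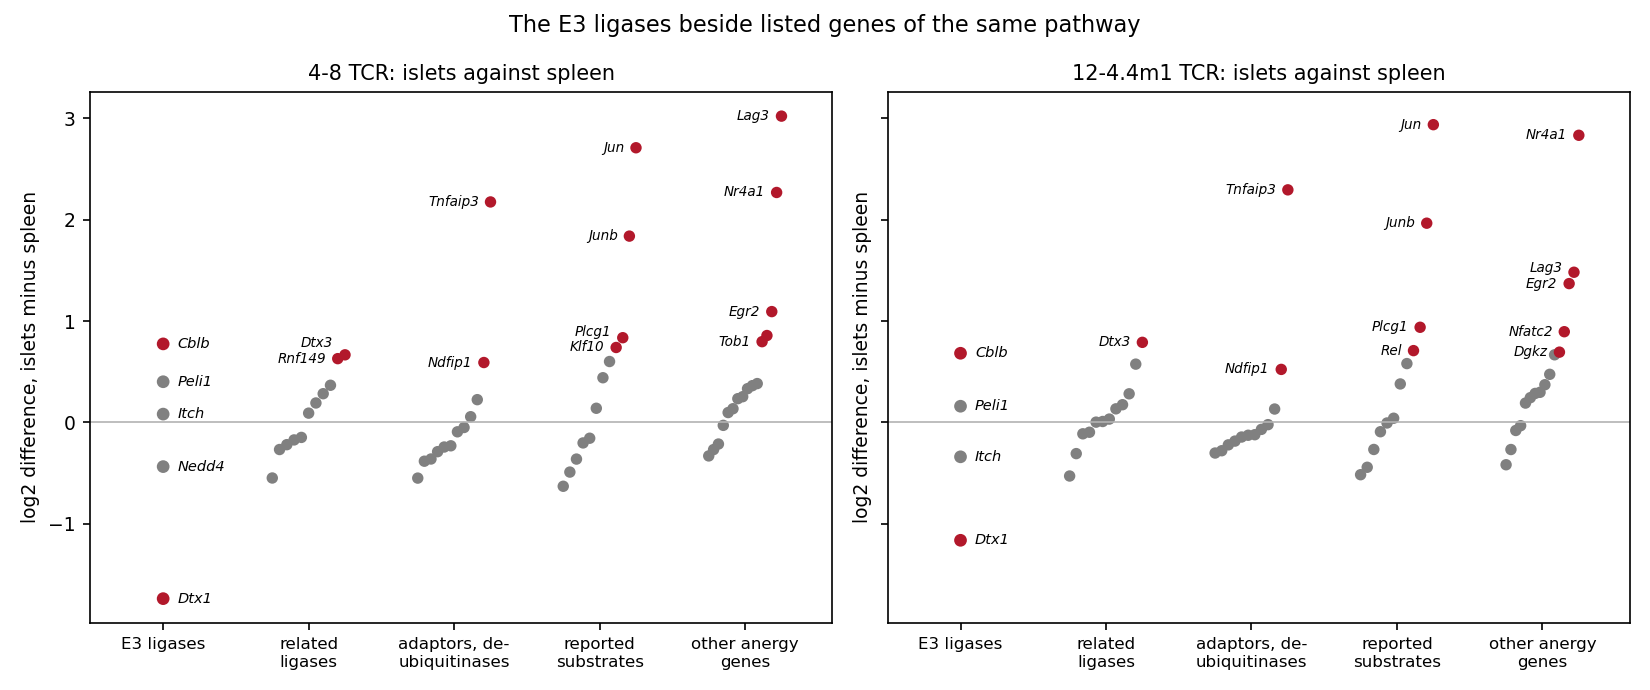
Log2 differences, islets minus spleen, of the tested E3 ligases and of 4 lists of related genes for each TCR. Points are genes, red marks an adjusted p under 0.05, and genes of a list are ordered by their value. Names stand beside the called genes that the text names. Dtx1 is the only red point below 0 in either panel.

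Markers of the sorted cells and of other cells were read in the same tables. All 9 Treg and T cell markers were tested in each table, and Foxp3 was at -0.06 between the tissues for 4-8 (limma adjusted p = 0.854) and 0.08 for 12-4.4m1 (limma adjusted p = 0.812). Of the 9, 3 were higher and 0 lower in islets for each TCR, namely Cd3e for 4-8 (0.52, limma adjusted p = 0.0309), Il2rb for 12-4.4m1 (0.66, limma adjusted p = 0.00575) and, for both, Ctla4 (2.03, limma adjusted p = 1.52e-07 for 4-8, and 2.21, limma adjusted p = 2.23e-10 for 12-4.4m1) and Cd4 (0.71, limma adjusted p = 0.00655 for 4-8, and 0.86, limma adjusted p = 0.000241 for 12-4.4m1). Their summed level, as antilogs of rlog values, was 11821 to 12263 in islets and 9263 to 9572 in spleen for 4-8, and 7397 to 8418 in islets and 6078 to 6806 in spleen for 12-4.4m1. Its part in the Cblb and Dtx1 differences was not tested. Between the TCRs in spleen 1 of the 9 was higher in 4-8, Il2rb (0.57, limma adjusted p = 0.0391), and in islets 0 were. B cells also express Dtx1. Of 7 B cell markers, 0 passed the count filter in the tissue tables, and Pax5 and Ebf1 were at 0 in all libraries. The summed level of the list was 10.2 to 11.1 in islets and 11.3 to 15.7 in spleen for 4-8, and 5.76 to 6.06 in islets and 6.60 to 7.12 in spleen for 12-4.4m1. In the authors' FPKM, the B cell sum was 3.16 in islets and 10.1 in spleen for 4-8, and 1.26 and 9.86 for 12-4.4m1. The list moved in the direction of Dtx1, mostly through Cd79b, whose authors' FPKM was 0.709 in islets and 9.18 in spleen for 4-8. Between the TCRs in spleen the summed level from rlog values was 17.6 to 22.3 in 4-8 and 18.6 to 19.5 in 12-4.4m1. Cd79b was singled out after its values were seen. The part of the B cell list in the Dtx1 difference was not tested. Of 12 early response and heat shock genes, which rise with stimulation and tissue dissociation and include Jun and Junb, 10 were higher in islets for 4-8, of 11 tested, and 11 for 12-4.4m1, of 12 tested. Their summed level was 5016 to 5814 in islets and 1548 to 1587 in spleen for 4-8, and 4886 to 6230 in islets and 1337 to 1461 in spleen for 12-4.4m1. Of 7 acinar markers, 3 were higher in 4-8 islets, of 4 tested, and 5 in 12-4.4m1 islets, of 6 tested. Their summed level was 69.8 to 146 in islets and 44.3 to 51.0 in spleen for 4-8, and 138 to 172 in islets and 59.5 to 65.9 in spleen for 12-4.4m1. The groups lay much further apart in the authors' FPKM. There the acinar sum was 212 in islets and 8.36 in spleen for 4-8, and 341 and 9.37 for 12-4.4m1. The part of either list in the Cblb and Dtx1 differences was not tested. In these tables, 0 CD8 T cell and NK cell markers passed the filter, and 0 of the tested myeloid (2 for 4-8) and islet endocrine (1 for 12-4.4m1) markers differed. Of 6 endothelial and stromal markers 1 was tested for each TCR, and it was lower in 4-8 islets.

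Genes whose pattern was most like that of a ligase were found by the mean of Pearson's r over the 4 tables of 6 libraries each, among 7928 genes above the filter in all tables. Points of a table share libraries, depth and the group differences, so these values are descriptions. Cblb was most like Cd3g, a chain of the TCR complex (mean r = 0.920), Scaf1 (0.904) and Phactr2 (0.879). Of these, Phactr2 was also higher in 4-8 islets than in 4-8 spleen (0.90, limma adjusted p = 0.00218), and Cd3g and Scaf1 did not pass in any comparison. Dtx1 had the lowest likeness of the 4 ligases measured, with Grap (0.772), Adar (0.771) and Mob3a (0.766), of which none passed in any comparison. Itch was most like Tnpo3 (0.854), Mllt11 (0.841) and Rad21 (0.836), and Peli1 most like Hnrnpl (0.939), Snx9 (0.879) and Cyp4f13 (0.863). Snx9 was higher in 4-8 islets than in 4-8 spleen (0.77, limma adjusted p = 0.00919), where Peli1 did not pass.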

How the data were processed

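RNA-seq libraries of sorted Tregs were made, per the labels' protocols, by detergent lysis, reverse transcription, cDNA amplification and Nextera XT. Per the submitters' processing notes, the authors used STAR 1.1.0, TopHat 1.0.0, Cufflinks, DESeq2 1.1.0 and DESeq on mm10 (GRCm38), in roles not stated there. For library depth and strandedness nothing is stated in those sources. Without strand, reads of genes that overlap a ligase on the opposite strand cannot be told apart from it. These are a small RNA gene in Cblb and in Rnf128 and a pseudogene in Itch. Summed mean normalized counts were 898995 to 1316454 per table.

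The authors deposited, for each of 4 comparisons, rlog values per library (log2 scale). The authors' DESeq2 table, as deposited, gave mean normalized counts (a signal after size factors), log2 fold changes with their SE and the Wald statistic as a score, and p-values. Its fold changes run second group over first and were turned round. The authors' Cuffdiff table gave FPKM per group, p-values and q-values.

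Each table was fitted separately with limma 3.58.1 in R 4.3.3 (eBayes with trend, 3 against 3 libraries, no replicate block, 2-sided). Genes with a mean normalized count of at least 10 were tested, at an adjusted p of 0.05. The fit was checked on simulated data. An exact permutation test of 3 against 3 libraries cannot go below a p of 0.1 and was not used. In the islet TCR table, the name of 1 islet 4-8 column is that of no title. It entered unnumbered, and it resembled islet 4-8 replicate 3 of the tissue table (r = 0.992 of deviations over 8168 genes). Other columns follow the titles, and 0 were left out. In each table, 4 rows with repeated symbols were left out. Members and lists were chosen with earlier results of these data known. Genes named were the 6 members, up to 3 genes of each list with the smallest p, the 3 genes most like each ligase, and Foxp3. Genes that count in a list but are not named are not reported here. Older symbols of Izumo1r and Adgre1 in the lists matched no row. Promoters are from RefSeq (GRCm38.p6), positions from GENCODE vM21.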

Additional observations from a re-analysis of the deposited data

How the results depend on the processing

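The calls of Dtx1 between the tissues held under every alternative, with differences of -2.52 to -1.51 for 4-8 and -1.78 to -1.01 for 12-4.4m1. Cblb kept its direction in all 4 comparisons (0.60 to 1.11 and 0.52 to 1.04 between the tissues for 4-8 and 12-4.4m1, 0.42 to 0.84 and 0.39 to 0.75 between the TCRs in islets and spleen). It lost its call under the settings named above. The cause was not tested. Members called without 1 library were 0 in both TCR comparisons, 1 to 3 between the tissues for 4-8 and 1 to 2 for 12-4.4m1. They were 1 for 12-4.4m1 with title style in the fit and 1 without the libraries titled Treg. Between the TCRs in islets, 1 was called with Xist level in the fit, 1 with title style and 1 in the authors' Cuffdiff table. In spleen it was 1 in the authors' Cuffdiff table.

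The labels do not say that a replicate number marks a mouse, and same-numbered libraries did not correlate above 0.1 in every pair of any table. In spleen each library did correlate best with its own number across the TCRs (0.120, 0.0865 and 0.0748 for replicates 1, 2 and 3). With the replicate number as a block, 2 members passed between the TCRs in spleen, Cblb (limma adjusted p = 0.0381) and Dtx1 (limma adjusted p = 0.0379), among 78 genes. The block gave 53 genes in islets (2 numbered pairs), 729 between the tissues for 4-8 and 724 for 12-4.4m1.

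Genes called in all were 30 between the TCRs in islets. They were 15 at a mean normalized count of at least 50, 50 with Xist level, 52 with title style, 16 without the libraries titled Treg, 57 by Cuffdiff and 9 to 44 without 1 library (9 without 12-4.4m1 replicate 1, 11 without 12-4.4m1 replicate 2). In spleen they were 39, and 17 without a trend, 19 with Xist level, 21 in the authors' DESeq2 table, 84 by Cuffdiff, 11 without both replicate 2 libraries and 14 to 56 without 1 library (23 without 4-8 replicate 2, 14 without 4-8 replicate 3, 16 without 12-4.4m1 replicate 2). Between the tissues for 4-8 they were 717, and 1212 with title style, 1142 by Cuffdiff and 306 to 1211 without 1 library (1211 without islet replicate 2, and 306, 370 and 326 without spleen replicates 1, 2 and 3). For 12-4.4m1 they were 575, and 922 by Cuffdiff and 288 to 610 without 1 library (288 and 313 without spleen replicates 1 and 2).

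Values of uncalled members changed sign. In islets between the TCRs, Dtx1 ran from -0.198 to 0.0973 without 1 library (0.0973 without islet 4-8 replicate 1, 0.0606 without islet 12-4.4m1 replicate 2). It was 0.0302 with Xist level, 0.0445 with title style and 0.0843 without the libraries titled Treg, where Peli1 was -0.0889. In spleen, Peli1 ran from -0.123 to 0.0748 without 1 library (above 0 without 4-8 replicate 2 or 12-4.4m1 replicate 3). Between the tissues for 4-8, Itch ran from -0.0225 to 0.158 without 1 library (-0.0225 without islet replicate 2) and was -0.0225 with title style, and Peli1 was -0.00994 for 12-4.4m1 after quantile normalization. With title style in the fit, Nedd4 passed for 4-8 (-0.56, limma adjusted p = 0.0426). Between the tissues for 4-8, islet replicate 2 is the only library titled Treg. There a fit with title style amounts to leaving that library out and is not a separate check. Low counts limit Nedd4 and Rnf128.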

Other observations

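Islet 4-8 replicate 2 had the highest value of its group for all 6 ligases, both in the table of the tissues and in that of the TCRs in islets. It was the highest for 35.7% of 8981 genes tested between the tissues and for 36.8% of 8212 genes tested between the TCRs. Its title is in the style with Treg, and its Xist value was 10.76, against 7.91 in replicate 3 and a lower value in replicate 1.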
